A study of Mus musculus with 30 samples.

Results

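The Ras genes Hras and Nras and the Ras GTPase-activating protein (GAP) genes Nf1, Rasa1, Rasa2, Rasa3, Rasa4 and Rasal2 were taken by gene symbol from a count table of 48440 mouse genes, and all 8 were present and were expressed above the filter on low counts. They were measured in 30 fibrosarcomas that grew in C57BL/6 mice from 5 tumor cell lines induced by methylcholanthrene (MCA), a chemical carcinogen. The tumors were depleted of CD45+ leukocytes on beads before bulk RNA sequencing, and the study compared lines whose growth did or did not depend on NK1.1+ cells, a class of lymphocytes that includes natural killer (NK) cells. The non-sensitive lines were MCA-943 (4 tumors) and MCA-969 (8 tumors), and the sensitive lines were MCA-948 (8 tumors), MCA-970 (6 tumors) and MCA-972 (4 tumors). The label for the mouse strain was Ncr1Cre for MCA-943 and Ncr1Cre R26DTA for the other lines. In Ncr1Cre, Cre recombinase is made under the promoter of the NKp46 gene of NK cells and related lymphocytes, and R26DTA is a toxin allele that Cre switches on and that kills those cells. The labels do not say whether this strain was the mouse in which the line arose or the transplanted one. All tumors of a line descend from 1 line, so each line stands for 1 primary tumor, and differences between lines cannot be told apart from differences between individual tumors of origin. The labels give NK cell sensitivity as "Yes" for MCA-969 W-1D and W-2D, against the other 6 MCA-969 tumors. The genes were chosen by symbol around Rasa4, which was selected on its counts in the non-sensitive against the sensitive lines of these same tumors, so its differences between lines are described without a test, and the other genes are shown as its relatives.

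Ras proteins are small GTPases at the inner face of the plasma membrane that act as switches downstream of growth factor receptors. Guanine nucleotide exchange factors load them with GTP, in which state they bind effectors such as Raf kinases, and GAPs speed the hydrolysis of GTP and so turn them off. In mesenchymal tumors, loss of the GAP neurofibromin, the product of Nf1, is a known route to Ras activation. The values here are transcript levels and carry no information on mutations or on the GTP-bound share of Ras, and other Ras isoforms are not analysed here.

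Total counts per tumor ranged from 27745104 to 46537062. By the numbers in their library names, the samples form 3 series, called runs here, which are partly confounded with line. In run 1 there were 4 tumors of MCA-972 and 6 of MCA-969, in run 2 there were 6 of MCA-970 with W-1D and W-2D of MCA-969 and a-2G and a-R of MCA-948, and in run 3 there were 6 tumors of MCA-948 and 4 of MCA-943. MCA-969 W-2D stood apart: the median deviation from the line mean of 1206 long genes (at least 8000 counted bases) minus that of 609 short genes (at most 2000) was -0.78 (log2) in this tumor and -0.36 to 0.31 in the other 29. The next lowest were MCA-948 a-R (-0.36) and a-2G (-0.29). The tumors carried the 11 fibroblast and mesenchymal markers at summed levels of 15531 to 91914 CPM (counts scaled per tumor to a common total, the unit of all levels below), with none at 0, and their source is labelled fibrosarcoma. The 14 leukocyte markers summed to 14.2 to 336 CPM and the 10 endothelial markers to 26.1 to 566 CPM, with the highest endothelial sums in MCA-970 (277 to 566 CPM). The 6 NK cell markers summed to 0.269 to 25.2 CPM, and Ncr1 was at 0 in every MCA-972 tumor. The part of other cells in the results below was not tested, and in bulk tissue fewer cells of a type cannot be told apart from less RNA per cell.

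The 2 promoters shown are those of Rasa4 and Rasa3, the GAP genes with the widest and the narrowest range of line means. Both are the 250 bases before the RefSeq start of transcription on GRCm38.p6, and capitals mark GC boxes (GGGCGG) and CCAAT boxes on either strand. In the Rasa4 window the GC boxes overlap each other.
Rasa4 promoter, chr5:136083666-136083915, plus strand: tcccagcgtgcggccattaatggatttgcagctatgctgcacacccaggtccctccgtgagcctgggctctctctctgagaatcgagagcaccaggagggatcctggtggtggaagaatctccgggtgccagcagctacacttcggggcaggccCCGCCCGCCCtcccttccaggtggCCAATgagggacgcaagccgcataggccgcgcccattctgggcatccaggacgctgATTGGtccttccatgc
Rasa3 promoter, chr8:13677588-13677837, minus strand: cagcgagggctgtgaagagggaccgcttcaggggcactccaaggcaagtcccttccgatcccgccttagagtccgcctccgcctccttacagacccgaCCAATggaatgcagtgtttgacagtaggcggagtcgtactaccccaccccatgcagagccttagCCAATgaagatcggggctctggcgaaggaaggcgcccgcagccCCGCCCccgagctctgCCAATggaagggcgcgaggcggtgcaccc
The Rasa4 window held 2 GC boxes and 2 CCAAT boxes, and the Rasa3 window held 1 GC box and 3 CCAAT boxes. Among 32851 windows of this length, 32.7% held a GC box and 33.8% a CCAAT box. Neither window held the AP-1 motif TGANTCA (6.75% of windows), the cyclic AMP response element TGACGTCA (1.55%), the E-box CACGTG (6.02%) or the TATA box TATAAA (12.4%). The GC content was 63.2% for Rasa4 and 64.4% for Rasa3, against a median of 52.4%.

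The levels of the 8 genes in every tumor are plotted below by line. Each of the 7 genes other than Rasa4 was compared between all pairs of the 5 lines with edgeR's quasi-likelihood test over 16862 genes, and a difference was called at an adjusted p under 0.05 (Benjamini-Hochberg) with a log2 fold change of at least 1 in either direction. Of the 70 comparisons of a gene between lines, 4 (5.71%) were called, against 24.5% over all genes and the same 10 line comparisons. The calls were Hras between MCA-943 and MCA-972 (1 of 7, against 25.6% of all genes), Nf1 between MCA-969 and MCA-948 (1 of 7, against 20.8%), and Rasal2 between MCA-943 and both MCA-948 (1 of 7, against 29%) and MCA-969 (1 of 7, against 27%). None of the 7 was called between MCA-943 and MCA-970 (27.3% of all genes), MCA-969 and MCA-970 (21.4%), MCA-969 and MCA-972 (20.6%), MCA-948 and MCA-970 (29.4%), MCA-948 and MCA-972 (26.8%) or MCA-970 and MCA-972 (17.6%). MCA-943 and MCA-970 shared no run. With the library run in the model, 3 of the 7 were called between them, and the share of all genes called in that model is not given here. They were Hras (1.01, edgeR adjusted p = 1.46e-05), Nras (-1.04, edgeR adjusted p = 2.26e-08) and Rasa2 (-1.13, edgeR adjusted p = 6.77e-08). That model links MCA-943 to MCA-969, MCA-970 and MCA-972 only through MCA-948. The MCA-948 tumors of run 2 were a-2G and a-R, which had low levels of long genes. Without the fold threshold, 45 of the 70 passed the adjusted p, against 60% of all comparisons over all genes, and all but the 4 called were smaller than 2-fold. Hras passed it in 9 of 10 comparisons, Nras, Nf1 and Rasal2 in 7 each, Rasa1 and Rasa2 in 6 each, and Rasa3 in 3. With the run in the model 39 passed, of which 33 had also passed without it. The share of all genes passing in that model is not given here either, so the 39 cannot be set against it.

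**Figure D1:**
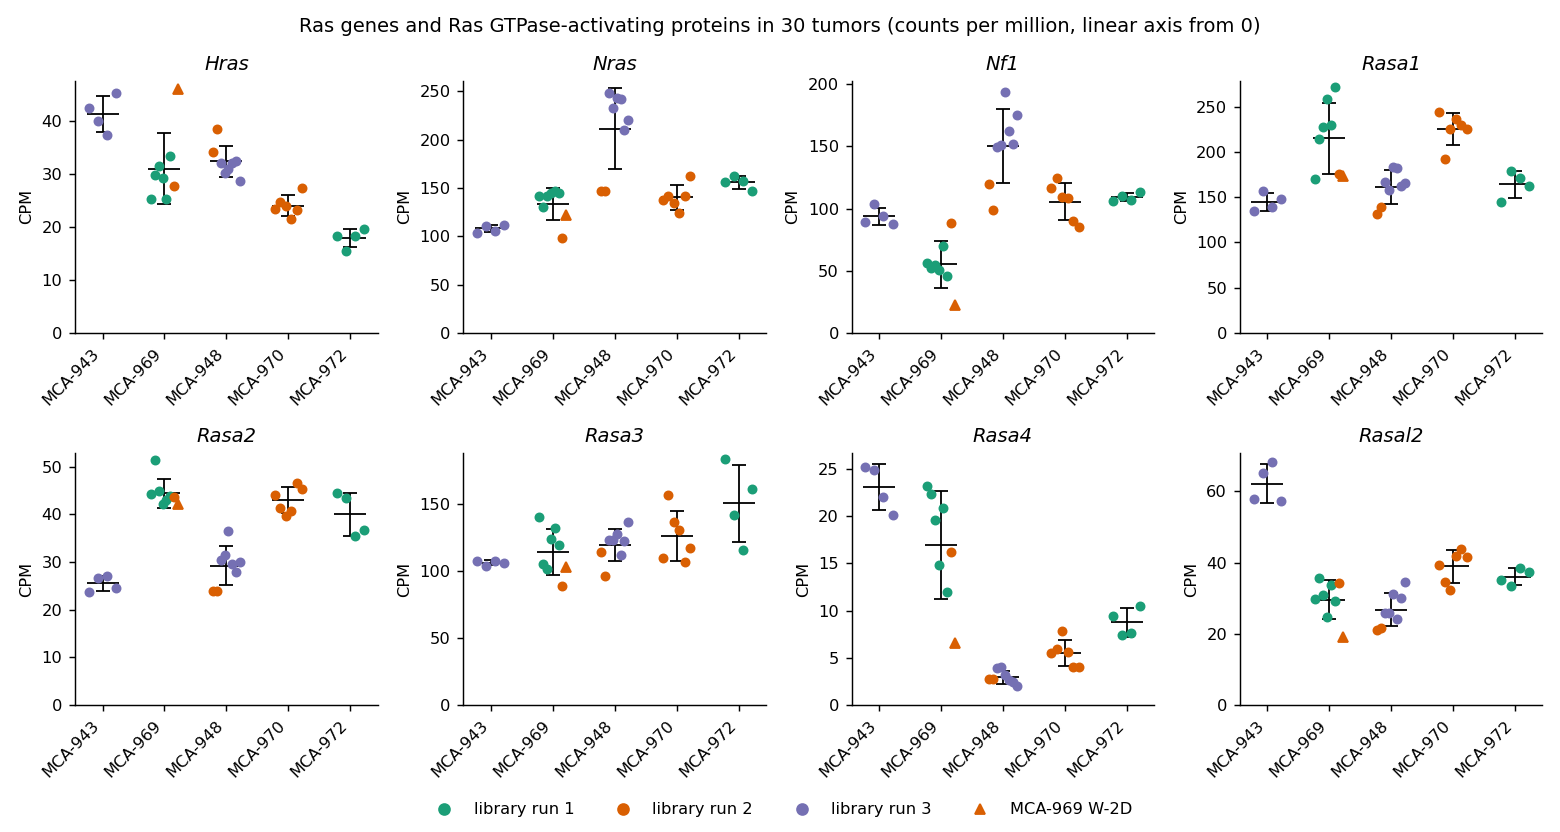
Level of each gene in CPM (linear axis from 0) in the 30 tumors by line; points are tumors colored by library run, the triangle is MCA-969 W-2D, and bars give the mean ± SD of each line (n = 4, 8, 8, 6 and 4 from left to right). Rasa4 was lowest in MCA-948 and highest in MCA-943. In the order of means, Nras, Nf1, Rasa1, Rasa2 and Rasa3 overlapped between all neighboring lines, and Rasa4 between all but MCA-970 and MCA-948.

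Hras encodes a Ras isoform that is lipid-modified by palmitate and cycles between the Golgi and the plasma membrane. The gene lies at chr7:141189105-141194005 on the minus strand (GRCm38, as for all genes below). Its level in MCA-943 was 42.5, 40.0, 37.4 and 45.4 CPM (W-2G, a-1D, a-1G and a-R). In MCA-972 it was 18.2, 15.5, 18.2 and 19.5 CPM (a-1, a-1G, 2G and a-R). Every MCA-943 tumor lay above every MCA-972 tumor, and the log2 fold change was 1.21 ± 0.13 (SE; edgeR adjusted p = 7.44e-09). The lowest, median and highest values were 28.7, 32.1 and 38.6 CPM in MCA-948, 25.2, 29.5 and 46.0 CPM in MCA-969, and 21.5, 23.7 and 27.4 CPM in MCA-970. The order of the means was MCA-943 (41.3 ± 3.39 CPM, SD, n = 4), MCA-948 (32.4 ± 2.97, n = 8), MCA-969 (31.0 ± 6.69, n = 8), MCA-970 (24.03 ± 1.94, n = 6) and MCA-972 (17.9 ± 1.67, n = 4). Among neighbors in this order, MCA-948 and MCA-969 did not differ beyond their spread (log2 fold change 0.06 ± 0.09, edgeR adjusted p = 0.575), while the others did, with MCA-970 and MCA-972 not overlapping. The highest MCA-969 value was that of W-2D. Within run 1, the only one with both lines, the MCA-969 excess over MCA-972 was 0.70 ± 0.10 (log2; 6 and 4 tumors, edgeR adjusted p = 0.000104). With the run in the model, MCA-970 and MCA-972 differed by 0.09 (edgeR adjusted p = 0.740), and MCA-943 and MCA-969 by 0.39 (edgeR adjusted p = 0.104).

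Nras encodes the other Ras isoform measured and lies at chr3:103058285-103067914 (plus strand). MCA-943 was at the bottom of its order and MCA-948 at the top. Its level in MCA-943 was 104, 111, 106 and 112 CPM, and in MCA-972 it was 156, 163, 157 and 147 CPM, tumors in the same order as above. The lowest, median and highest values were 147, 226 and 249 CPM in MCA-948, 98.7, 142 and 147 CPM in MCA-969, and 124, 140 and 163 CPM in MCA-970. The means fell from MCA-948 (211 ± 41.7 CPM, SD, n = 8) through MCA-972 (156 ± 6.69, n = 4), MCA-970 (140 ± 12.8, n = 6) and MCA-969 (134 ± 16.5, n = 8) to MCA-943 (108 ± 4.07, n = 4). MCA-972, MCA-970 and MCA-969 did not differ beyond their spread between neighbors (edgeR adjusted p = 0.335 and 0.590), while MCA-948 was above MCA-972 (edgeR adjusted p = 0.00244) and MCA-969 above MCA-943 (edgeR adjusted p = 0.0287), both with overlap. All MCA-943 tumors lay below all MCA-948 tumors, by a log2 fold change of -0.97 ± 0.12 (edgeR adjusted p = 7.89e-08), just short of the threshold on the fold change. The MCA-948 tumors were split by run: a-2G and a-R of run 2 had 147 and 147 CPM, and the 6 tumors of run 3 had 210 to 249 CPM. These are also the MCA-948 tumors with low levels of long genes. Within run 3, MCA-943 lay -1.13 ± 0.06 below MCA-948 (log2; 4 and 6 tumors, edgeR adjusted p = 1.22e-08), and without a-2G, a-R and MCA-969 W-2D the difference was -1.11 (edgeR adjusted p = 1.51e-11). Within run 2, MCA-948 and MCA-970 differed by 0.08 ± 0.11 (2 and 6 tumors, edgeR adjusted p = 0.586), against 0.59 over all tumors (edgeR adjusted p = 1.65e-05). MCA-969 lay -0.34 ± 0.11 below MCA-970 in that run (2 and 6 tumors, edgeR adjusted p = 0.0363). With the run in the model, MCA-943 minus MCA-970 moved from -0.38 (edgeR adjusted p = 0.0119) to -1.04, MCA-943 minus MCA-969 from -0.31 to -0.70 (edgeR adjusted p = 6.25e-05), and MCA-948 minus MCA-972 from 0.44 to 0.27 (edgeR adjusted p = 0.0906).

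On a scale per length (CPM per kb of counted exons), Nras was the higher of the pair in every line. Hras made up 35.3% ± 1.73 (SD, n = 4) of the summed level of Hras and Nras in MCA-943, 25.0% ± 4.93 (n = 8) in MCA-969, 19.7% ± 0.48 (n = 6) in MCA-970, 18.6% ± 4.77 (n = 8) in MCA-948 and 14.1% ± 1.63 (n = 4) in MCA-972. The MCA-948 share was split by run. Tumors a-2G and a-R of run 2 had 24.9% and 27.2%, and the 6 of run 3 had 15.3% to 18.1%. The MCA-970 tumors, all of run 2, had at most 20.3%, so within that run MCA-948 lay above MCA-970. The lowest MCA-943 share was 33.6% and the highest share elsewhere was 35.0%, in MCA-969, so these lines overlapped through 1 tumor, MCA-969 W-2D. The next highest share outside MCA-943 was 28.6%, in MCA-969 W-1D, so without W-2D every MCA-943 tumor had a higher share than all other tumors. The summed level was 48.3 ± 7.24 CPM per kb in MCA-948 (n = 8) and 31.3 to 34.0 CPM per kb as means of the other lines. Within MCA-948 it ranged from 36.7 to 55.2 CPM per kb, and a-2G and a-R of run 2 were the lowest. The lowest MCA-948 value lay below the highest MCA-970 value (37.8 CPM per kb).

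Nf1 encodes neurofibromin, a large cytoplasmic RasGAP and tumor suppressor, at chr11:79339693-79581612 (plus strand). In MCA-969 its lowest, median and highest levels were 22.4, 53.3 and 88.5 CPM, and in MCA-948 they were 98.6, 152 and 194 CPM. Every MCA-969 tumor lay below every MCA-948 tumor, with a log2 fold change of -1.45 ± 0.17 (edgeR adjusted p = 1.4e-08). In MCA-970 they were 85.0, 109 and 125 CPM. The levels were 89.2, 103, 94.4 and 87.4 CPM in MCA-943 and 106, 110, 107 and 113 CPM in MCA-972, tumors in the same order as above. MCA-969 was also below MCA-970 (log2 fold change -0.94, edgeR adjusted p = 3.81e-05), and MCA-972 (-0.99, edgeR adjusted p = 9.24e-05), and MCA-943 was above it (0.76, edgeR adjusted p = 0.00124). The means were 150 ± 30.02 CPM in MCA-948 (SD, n = 8), 109 ± 3.28 in MCA-972 (n = 4), 106 ± 15.3 in MCA-970 (n = 6), 93.6 ± 7.14 in MCA-943 (n = 4) and 55.1 ± 19.02 in MCA-969 (n = 8). MCA-972, MCA-970 and MCA-943 did not differ beyond their spread between neighbors (edgeR adjusted p = 0.868 and 0.490).

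Within MCA-969, the extremes of Nf1 were both in run 2. The 6 tumors of run 1 had 46.1 to 70.2 CPM, and the pair in run 2, W-1D and W-2D, had 88.5 and 22.4 CPM, the highest and the lowest of the line. Within run 1, MCA-969 lay -0.99 ± 0.10 below MCA-972 (log2; edgeR adjusted p = 4.59e-06). Within run 2, the log2 difference to MCA-948 was -0.97 ± 0.47 (2 and 2 tumors, edgeR adjusted p = 0.178) and that to MCA-970 was -0.92 ± 0.40 (2 and 6 tumors, edgeR adjusted p = 0.0921). MCA-948 was also split by run: a-2G and a-R of run 2 had 120 and 98.6 CPM, and the 6 tumors of run 3 had 150 to 194 CPM. MCA-948 minus MCA-970 was 0.06 ± 0.38 within run 2 (2 and 6 tumors, edgeR adjusted p = 0.911), against 0.51 over all tumors (edgeR adjusted p = 0.0122). With the run in the model over all 30 tumors, MCA-969 minus MCA-948 was -0.97 (edgeR adjusted p = 0.02), below the fold threshold. In that model MCA-943 minus MCA-969 was 0.16 (edgeR adjusted p = 0.754), and MCA-948 minus MCA-972 was -0.02 (edgeR adjusted p = 0.982), against 0.46 without the run (edgeR adjusted p = 0.0488). Without W-2D, a-2G and a-R, and without the run in the model, MCA-969 minus MCA-948 was -1.46 (edgeR adjusted p = 3.87e-11). The Nf1 gene holds smaller genes in its introns, of which Evi2a had up to 3083 counts in a tumor and was counted separately.

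Rasal2 encodes a RasGAP, at chr1:157135182-157412595 (minus strand). In MCA-943 its level was 57.9, 65.1, 68.3 and 57.3 CPM, above every tumor of the other lines. The lowest, median and highest values were 19.03, 30.3 and 35.6 CPM in MCA-969, 21.2, 25.8 and 34.6 CPM in MCA-948, and 32.3, 40.4 and 43.8 CPM in MCA-970. In MCA-972 it was 35.0, 33.4, 38.5 and 37.4 CPM. The means were 62.1 ± 5.45 CPM in MCA-943 (SD, n = 4), 38.9 ± 4.503 in MCA-970 (n = 6), 36.1 ± 2.31 in MCA-972 (n = 4), 29.6 ± 5.49 in MCA-969 (n = 8) and 26.8 ± 4.76 in MCA-948 (n = 8). The MCA-943 tumors were higher than MCA-948 by 1.21 ± 0.13 (log2; edgeR adjusted p = 1.6e-09), MCA-969 by 1.07 ± 0.13 (edgeR adjusted p = 2.88e-08), MCA-972 by 0.78 (edgeR adjusted p = 7.33e-05) and MCA-970 by 0.68 (edgeR adjusted p = 0.000108). Each other pair of neighbors in this order overlapped and did not differ beyond its spread (edgeR adjusted p = 0.542, 0.0664 and 0.254). The difference to MCA-948 was 1.09 ± 0.10 within run 3 (edgeR adjusted p = 1.26e-06). The difference to MCA-969, which shared no run with MCA-943, fell just below the fold threshold without W-2D (0.998), and was 0.81 with the run in the model (edgeR adjusted p = 0.00688). In the same model the differences from MCA-970 and MCA-972 were 0.26 (edgeR adjusted p = 0.314) and 0.57 (edgeR adjusted p = 0.0984). An exon of Rasal2 overlaps the pseudogene 2810025M15Rik on the other strand, which had 433 to 1800 counts in a tumor, with the most in MCA-943 (1230 to 1800). Whether the counting used strand is not given in the sources used here, so reads of the pair may not be separable.

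**Figure D2:**
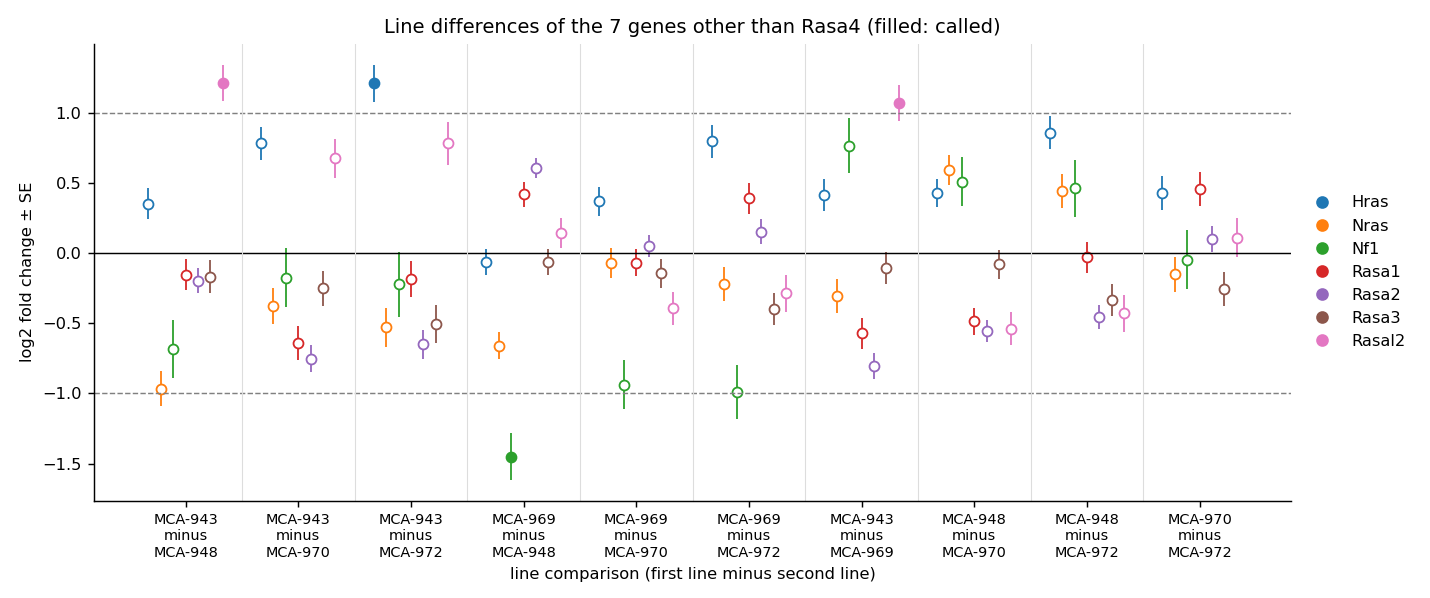
Log2 fold change ± SE of each gene other than Rasa4 in the 10 line comparisons (edgeR, 30 tumors); filled points are the 4 called comparisons and dashed lines mark a log2 fold change of 1 and -1. Hras and Rasal2 lay above 0, and Nras below 0, in all 4 comparisons of MCA-943 with another line, each at an edgeR adjusted p under 0.05. Rasa1, Rasa2 and Rasa3 also lay below 0, but not all of theirs passed (edgeR adjusted p up to 0.228, 0.0573 and 0.444). These 4 comparisons share the same MCA-943 tumors, and the share of all genes with the same sign throughout was not computed.

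Rasa1 and Rasa2 were both highest in MCA-969 and MCA-970 and lowest in MCA-943. Rasa1 encodes p120-RasGAP, which binds activated receptor tyrosine kinases through its SH2 domains, and Rasa2 encodes a GAP of the GAP1 family. They lie at chr13:85214780-85289130 and chr9:96539300-96631617, both on the minus strand. The line means of Rasa1 ran from 145 ± 9.63 CPM in MCA-943 (SD, n = 4) through 161 ± 18.6 in MCA-948 (n = 8), 164 ± 14.9 in MCA-972 (n = 4) and 215 ± 39.2 in MCA-969 (n = 8) to 225 ± 18.01 in MCA-970 (n = 6). The step between MCA-972 and MCA-969 passed the test (log2 fold change 0.39 ± 0.11, edgeR adjusted p = 0.00435), while the other neighbors did not differ beyond their spread (edgeR adjusted p = 0.227 to 0.833). No Rasa1 comparison reached 2-fold. MCA-969 minus MCA-970 was -0.37 with the run in the model (edgeR adjusted p = 0.0116). Within run 3, MCA-943 lay -0.26 ± 0.07 below MCA-948 (log2; 4 and 6 tumors, edgeR adjusted p = 0.00363). An exon of Rasa1 overlaps Ccnh on the other strand, which had 823 to 3128 counts in a tumor.

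The means of Rasa2 were 25.5 ± 1.66 CPM in MCA-943 (SD, n = 4), 29.2 ± 4.12 in MCA-948 (n = 8), 40.0 ± 4.55 in MCA-972 (n = 4), 42.9 ± 2.72 in MCA-970 (n = 6) and 44.4 ± 3.02 in MCA-969 (n = 8). The lines fell into a lower pair, at 23.6 to 36.4 CPM, and 3 higher lines, at 35.4 to 51.4 CPM, which overlapped between 1 tumor on each side. The step between MCA-948 and MCA-972 was 0.45 ± 0.09 (log2; edgeR adjusted p = 4.92e-05). Over all tumors, neighbors within each set did not differ beyond their spread (edgeR adjusted p = 0.0573, 0.380 and 0.606). Within run 3, however, MCA-943 lay -0.31 ± 0.08 below MCA-948 (4 and 6 tumors, edgeR adjusted p = 0.00462). With the run in the model this difference was -0.28 (edgeR adjusted p = 0.00232). Both MCA-948 tumors of run 2 were the lowest of their line, at 23.8 and 23.9 CPM. Within run 2, MCA-948 lay -0.84 ± 0.09 below MCA-970 (2 and 6 tumors, edgeR adjusted p = 8.79e-05), against -0.56 over all tumors (edgeR adjusted p = 3.01e-07). With the run in the model, Rasa2 passed the fold threshold between MCA-943 and both MCA-970 and MCA-969.

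Rasa3 encodes another GAP1 family member, which also acts on the related GTPase Rap, at chr8:13566948-13677603 (minus strand). Its line means lay between 106 ± 1.89 CPM in MCA-943 (SD, n = 4) and 151 ± 28.7 CPM in MCA-972 (n = 4), with MCA-969 at 114 ± 17.4 (n = 8), MCA-948 at 120 ± 12.2 (n = 8) and MCA-970 at 126 ± 18.9 (n = 6). No neighbors in this order differed beyond their spread (edgeR adjusted p = 0.0873 to 0.584), and MCA-972 was higher than MCA-943, MCA-969 and MCA-948 (log2 fold changes of -0.50, -0.40 and -0.33 for those lines minus MCA-972; edgeR adjusted p = 0.00222, 0.00450 and 0.0129). The differences to MCA-943 and MCA-948, with the run in the model, were -0.41 and -0.19 (edgeR adjusted p = 0.174 and 0.523). Line accounted for 37.6% of the variance of log2 CPM of Rasa3, the smallest share among the 8 genes, against a median of 75.0% over all genes tested. The range of its line means was 0.48 (log2), against a median of 1.15.

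Rasa4 encodes CAPRI, a GAP that calcium recruits to the plasma membrane, at chr5:136083916-136111860 (plus strand). Its level in MCA-943 was 25.2, 24.9, 22.1 and 20.1 CPM, and in MCA-972 it was 9.44, 7.38, 7.61 and 10.5 CPM, tumors in the same order as above. The lowest, median and highest values were 6.56, 17.9 and 23.2 CPM in MCA-969, 3.99, 5.57 and 7.79 CPM in MCA-970, and 1.99, 2.74 and 3.97 CPM in MCA-948. The lowest MCA-969 value was that of W-2D, below the highest MCA-972 tumor. Between neighbors in the order of means, only MCA-970 and MCA-948 did not overlap (lowest 3.99 and highest 3.97 CPM). The other 7 MCA-969 tumors had 11.9 CPM or more, above all tumors of the 3 sensitive lines. The difference of mean log2 CPM between MCA-969 and MCA-972, the nearest non-sensitive and sensitive lines, was 0.87, and without W-2D it was 1.05. These levels rest on 75 to 1010 counts per tumor, the fewest among the 8 genes. The mean of MCA-943 (23.1 CPM) was 7.82 times that of MCA-948 (2.95 CPM), against ratios of the highest to the lowest line mean of 1.42 to 2.73 for the other 7 genes. As Rasa4 was selected on its counts in these lines, this contrast is not a test. Its range of line means was 2.97 (log2), against a median of 1.15, and 86.4% of all genes tested had a range no wider. Among the 2652 genes within 1 log2 CPM of its mean level, that share was 85.0%. The antisense gene Gm15701, which overlaps an exon of Rasa4, had at most 2 counts in a tumor.

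Among the GAP genes the spread of Rasa4 between lines did not go with a large share of the GAP transcripts. On the scale per length, Rasa1 and Rasa3 together made up most of the summed level of the 6 GAP genes in every line, with line means of 34.7% to 46.9% for Rasa1 and 35.9% to 45.04% for Rasa3. Nf1 took 5.59% ± 2.18 (SD, n = 8) in MCA-969 and 15.9% ± 1.53 (n = 8) in MCA-948, and Rasal2 took 8.10% ± 0.60 (n = 4) in MCA-943 and 3.28% to 4.14% as means of the other lines. Rasa4 took 5.52% ± 0.57 (n = 4) in MCA-943, 3.60% ± 1.18 (n = 8) in MCA-969, 1.78% ± 0.24 (n = 4) in MCA-972, 1.06% ± 0.24 (n = 6) in MCA-970 and 0.672% ± 0.16 (n = 8) in MCA-948. The summed GAP level was 55.8 ± 1.61 CPM per kb in MCA-943 (n = 4), the lowest mean, and 68.7 ± 2.77 in MCA-970 (n = 6), the highest. Its ratio to the summed level of Hras and Nras was 1.24 ± 0.10 in MCA-948 (1.10 to 1.40, n = 8), below all tumors of the other lines (1.42 to 2.46, line means 1.78 to 2.11). These ratios compare transcript levels of different genes and say nothing of the protein amounts.

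**Figure D3:**
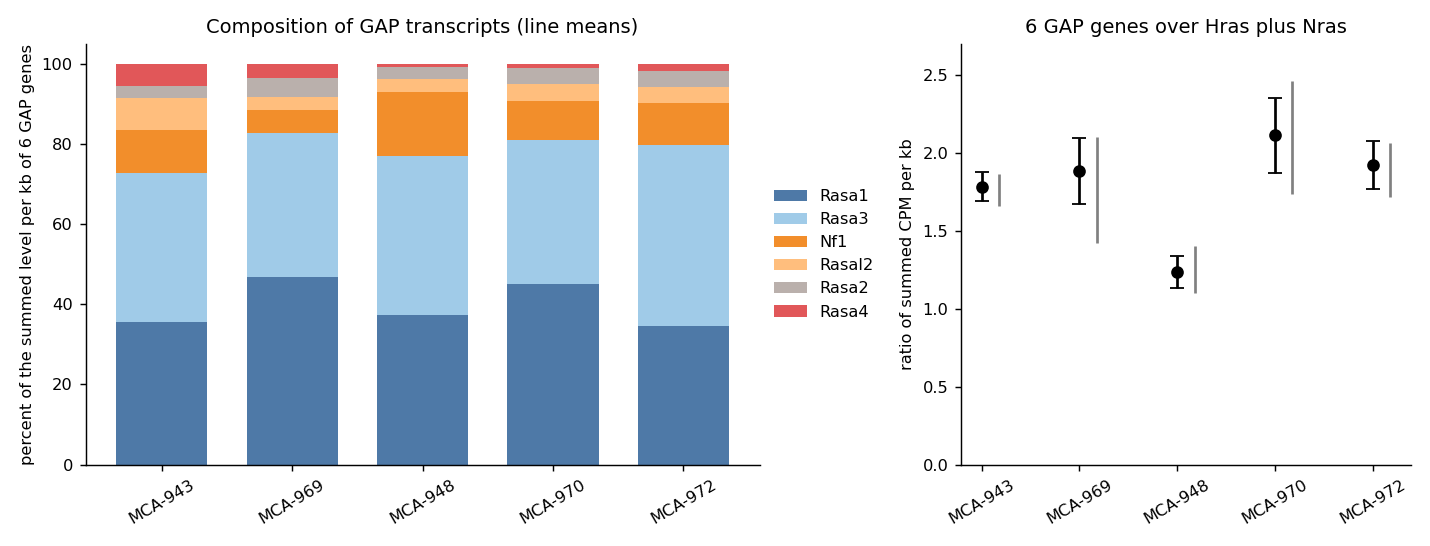
Left, percent of the summed level per kb of 6 GAP genes taken by each gene, as line means; right, ratio of the summed GAP level to the summed level of Hras and Nras per kb, as mean ± SD (points and bars) with the lowest to highest tumor (grey lines; n = 4, 8, 8, 6 and 4). Rasa4 took 0.672% to 5.52%, and the ratio was lowest in MCA-948 (1.24).

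The genes varied in different directions. Over the 30 tumors, log2 CPM of Rasa4 correlated most with Rasal2 among the other members (Pearson r = 0.50, Spearman rho = 0.44) and least with Nras (r = -0.71, rho = -0.72) and Nf1 (r = -0.56, rho = -0.69), where tumors of a line share their line and its library runs. Within lines, after subtraction of line means, the correlation with Nf1 was 0.59. MCA-969 W-2D had the lowest deviations of the 30 tumors in both genes (-1.27 in Rasa4 and -1.21 in Nf1, log2). That correlation was not computed without it. The closest pair of members was Rasa1 and Rasa2 (r = 0.75 over tumors, 0.33 within lines). Of 16861 other genes, 10 had a Pearson r with Rasa4 over 0.9 and 21 under -0.9. The highest were Pip5k1c, a lipid kinase that makes PIP2 (r = 0.95), Kdsr, an enzyme of sphingolipid synthesis (0.94), Slc16a4, of the monocarboxylate transporter family (0.93), B4galnt1, a ganglioside synthase (0.92), and Trbc2, a T-cell receptor constant region (0.92). The lowest were Gstcd, Smu1 and the protocadherin Pcdhgb7 (each -0.94). These values follow the 5 line means, with which r was 0.95 to 1.00 in size, and within lines r of these 8 genes ranged from -0.72 to 0.49.

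Deviations within lines moved with the level of long over short genes. Nf1 is counted over 15820 bases, Rasal2 over 13740 and Hras over 3733. Over the 30 tumors, the deviation of Nf1 from its line mean correlated with the long minus short value at r = 0.88 (rho = 0.73), that of Rasal2 at 0.77 (0.56) and that of Hras at -0.81 (-0.56). Without W-2D and MCA-948 a-R, the tumors farthest from the median, r was 0.69, 0.60 and -0.54 in the remaining 28. The line means still included those tumors, so their influence was not fully removed. Rasa4 had r = 0.51, which rested on those tumors (0.07 without them). Rasa2, counted over 15856 bases, had r = 0.43. Rasa1 (7296 bases) had 0.53, Nras (5331) 0.46 and Rasa3 (5095) 0.35, so r did not rise with counted length throughout. The part of RNA quality in the values of these genes was not tested.

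**Figure D4:**
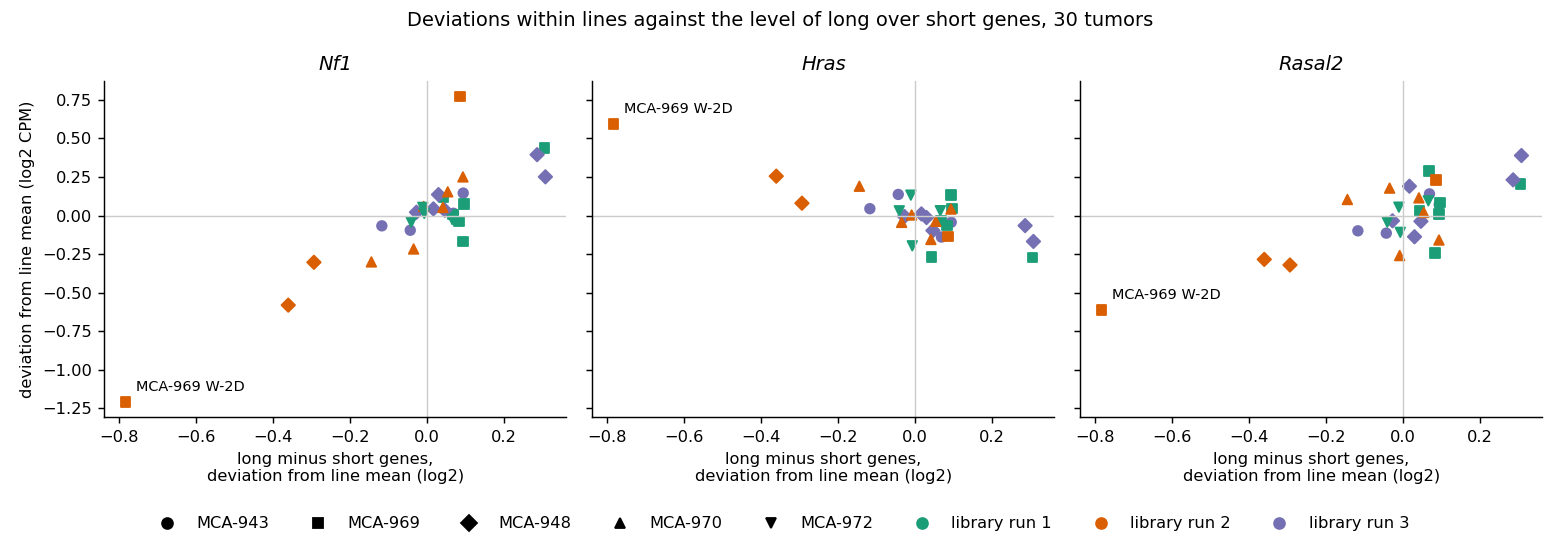
Deviation of log2 CPM from the line mean of Nf1, Hras and Rasal2 against the deviation of long minus short genes (log2) in each of 30 tumors; symbols give the line and colors the library run. MCA-969 W-2D lay at -0.78 with the lowest Nf1 and Rasal2 and the highest Hras deviations.

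The tumor titles carry a letter, W or a, whose meaning is not given. In 26 tumors of 4 lines, 5 of the 6 NK cell markers were higher in W than in a at edgeR adjusted p under 0.05, against 0.272% of all genes in either direction: Ncr1 (fitted log2 difference 5.56), Gzma (5.06), Prf1 (4.12), Klrd1 (3.40) and Klrb1c (2.36), with edgeR adjusted p from 6.16e-06 to 0.00154. The 6 markers summed to 1.13 to 25.2 CPM in the 12 W tumors (median 5.12) and 0.269 to 5.65 CPM in the 14 a tumors (median 2.21). None of the 12 leukocyte, 10 endothelial and 11 fibroblast markers tested passed. No member passed the edgeR test of W minus a with line in the model. None had an unadjusted p under 0.05, against 7.35% of all genes, and DESeq2 also called 0. The log2 differences ranged from -0.11 for Rasa1 to 0.28 for Rasa4 (edgeR adjusted p = 0.853 and 0.741). Whether the letter difference differed between MCA-948, MCA-969 and MCA-970 was tested in 22 tumors, and no member passed (0.0946% of all genes did). At an unadjusted p under 0.05 there were 2 members, Rasa1 and Nras (13.2% of all genes). For Rasa1 the letter difference was -0.42 ± 0.11 (log2) in MCA-969, 0.22 ± 0.11 in MCA-948 and -0.05 ± 0.12 in MCA-970 (interaction edgeR adjusted p = 0.181), and DESeq2 called it. In MCA-969 the W tumors had 170, 214, 176 and 173 CPM of Rasa1 and the a tumors had 227, 259, 229 and 271 CPM, without overlap. The letter and the run cannot be fully told apart here: the MCA-969 tumors of run 2 both carry W, and the MCA-948 tumors of run 2 both carry a.

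The other Ras pathway genes were taken from lists of 51 genes, of which all passed the filter. Of 510 comparisons of a gene between lines, 99 (19.4%) were called, against 24.5% over all genes, and 26 of the 51 genes were called at least once, against 59% of all genes. In size, the median log2 fold change was 0.42. In MCA-943 minus MCA-948, 7 of 51 genes were higher and 6 lower (17.7% and 11.3% of all genes), and for MCA-943 against MCA-972, 8 were higher and 5 lower (12.2% and 13.4%). Against MCA-970, 4 were higher in MCA-943 and 8 lower (12.6% and 14.8%), and between MCA-943 and MCA-969, 6 were higher in MCA-943 and 8 lower (12.1% and 14.9%). For MCA-969, 6 genes were higher and 1 lower than in MCA-948 (16.8% and 3.91%), 4 and 6 against MCA-970 (10.7% each), and 5 and 2 against MCA-972 (10.3% each). Among the sensitive lines, 2 were higher and 6 lower in MCA-948 than in MCA-970 (9.64% and 19.8%), 2 and 5 in MCA-948 than in MCA-972 (8.27% and 18.5%), and 5 and 3 in MCA-970 than in MCA-972 (8.56% and 9.01%).

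Of the other RasGAPs described, Rasal1 was called in 5 of 10 comparisons, Rasal3 in 3 and Dab2ip in none, against 24.5% of comparisons over all genes. Dab2ip, a GAP that also binds signaling proteins of the TNF pathway, had line means of 40.3 to 65.9 CPM. Rasal1 and Rasal3 were expressed at low levels, at line means of at most 0.358 and 1.03 CPM (264 and 427 counts in all 30 tumors together). Rasal3, which is mostly expressed in leukocytes, was called between MCA-943 (0.151 to 2.20 CPM) and MCA-969 (0 to 0.236 CPM, edgeR adjusted p = 0.000506). The leukocyte markers summed to 27.4 to 163 CPM in the first and 14.2 to 66.7 CPM in the second of these lines.

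Among proteins that work with neurofibromin or share its domain, the Spred genes bring neurofibromin to the membrane through their products. They had 1 call in 30 comparisons (3.33%, against 24.5% over all genes). Spred3 was lower in MCA-943 (17.4 ± 1.87 CPM, n = 4) than in MCA-969 (39.9 ± 3.43 CPM, SD, n = 8), by -1.20 ± 0.10 (log2; edgeR adjusted p = 2.47e-11). IQGAP proteins carry a GAP-related domain but act as scaffolds, and all 3 genes were called at least once (10 of 30 comparisons, 33.3%). Iqgap2 was at 5.96 ± 0.33 CPM in MCA-943 (n = 4) and 124 ± 23.5 CPM in MCA-969 (n = 8), with the other lines between 32.5 and 58.9 CPM. The log2 difference between these 2 non-sensitive lines was -4.38 ± 0.19 (edgeR adjusted p = 3.87e-17). Iqgap3 and Iqgap1 were higher in MCA-943 than in MCA-969 (1.34, edgeR adjusted p = 3.81e-11) and MCA-972 (1.12, edgeR adjusted p = 3.5e-09).

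The R-Ras branch, close relatives of Ras that some of these GAPs also act on, had the highest share of calls among the lists. It was 14 of 30 comparisons (46.7%, against 24.5% over all genes). Rras2, Mras and Rras were highest in MCA-943, at 94.7 ± 6.88, 88.5 ± 4.17 and 86.5 ± 3.54 CPM (SD, n = 4). Rras2 and Mras were lowest in MCA-970 (19.8 ± 1.36 and 23.99 ± 2.72 CPM, n = 6), and Rras was lowest in MCA-972 (28.5 ± 3.44 CPM, n = 4). The log2 differences from MCA-943 were 2.26 for Rras2 (edgeR adjusted p = 1.19e-14), 1.88 for Mras (edgeR adjusted p = 6.19e-11) and 1.604 for Rras (edgeR adjusted p = 1.11e-08).

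The exchange factors, which oppose the GAPs, had 25 calls in 80 comparisons (31.25%, against 24.5% over all genes) over 7 of 8 genes. Rasgrf1, a calcium-responsive exchange factor, was at 15.9 ± 3.95 CPM in MCA-969 (n = 8), 11.6 ± 1.48 in MCA-972 (n = 4), 7.60 ± 1.76 in MCA-943 (n = 4), 1.13 ± 0.53 in MCA-970 (n = 6) and 0.327 ± 0.17 in MCA-948 (SD, n = 8). It was called in 8 of 10 comparisons, the largest being MCA-969 minus MCA-948 (5.58 ± 0.27, edgeR adjusted p = 3.5e-16). The order of its line means put MCA-972, a sensitive line, between the non-sensitive lines. Rasgrp1 and Rasgrp3 respond to diacylglycerol and are best known in lymphocytes and endothelium. Rasgrp1 had line means of 0.165 to 1.31 CPM, highest in MCA-943, and Rasgrp3 was lower in MCA-943 (mean 2.22 CPM, 1.63 to 3.70, n = 4) than in MCA-970 (mean 10.8 CPM, 3.82 to 16.2, n = 6; log2 -2.28 ± 0.54, edgeR adjusted p = 0.000624). The endothelial markers summed to 66.7 to 154 CPM in MCA-943 and 277 to 566 CPM in MCA-970, and their part was not tested.

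None of the 5 adaptor genes (Grb2, Shc1, Gab1, Ptpn11 and Frs2) and none of the 7 genes of lipid processing and trafficking of Ras (Fnta, Fntb, Rce1, Icmt, Pde6d, Zdhhc9 and Golga7) was called in any of 50 and 70 comparisons. The effectors and kinases downstream had 32 calls in 140 comparisons (22.9%) over 7 of 14 genes. Over all genes, 24.5% of comparisons were called, and 59% of genes at least once. Tiam1, an exchange factor for Rac that binds Ras, was low in MCA-943 (0.511 ± 0.37 CPM, n = 4), and was at 15.8 ± 6.07 in MCA-969 (n = 8), 26.7 ± 2.81 in MCA-970 (n = 6), 39.9 ± 8.47 in MCA-948 (n = 8) and 61.9 ± 8.68 CPM in MCA-972 (SD, n = 4). MCA-943 minus MCA-972 was -6.90 ± 0.45 (edgeR adjusted p = 3.83e-13). Rgl3, an exchange factor for Ral, was at 4.34 ± 0.74 CPM in MCA-970 (n = 6) and at line means of 0.0766 to 0.518 CPM elsewhere. Plce1, a phospholipase C that Ras binds, was lower in MCA-943 (0.446 ± 0.09 CPM, n = 4) than in MCA-972 (8.85 ± 3.61 CPM, SD, n = 4; log2 -4.28 ± 0.49, edgeR adjusted p = 2.21e-08).

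The 4 other regulators had 6 calls in 40 comparisons (15%, against 24.5% over all genes). All were from the galectins, which bind Ras at the membrane among other partners. Lgals3 was lower in MCA-972 (71.1 ± 16.4 CPM, n = 4) than in each other line (161 to 224 CPM as means), and the largest difference was that of MCA-969 over MCA-972 (1.65 ± 0.31, edgeR adjusted p = 5.19e-05). Lgals1 was higher in MCA-943 (3702 ± 273 CPM, SD, n = 4) than in MCA-969 (1772 ± 437 CPM, n = 8) by 1.06 ± 0.14 (edgeR adjusted p = 1.34e-07).

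**Figure D5:**
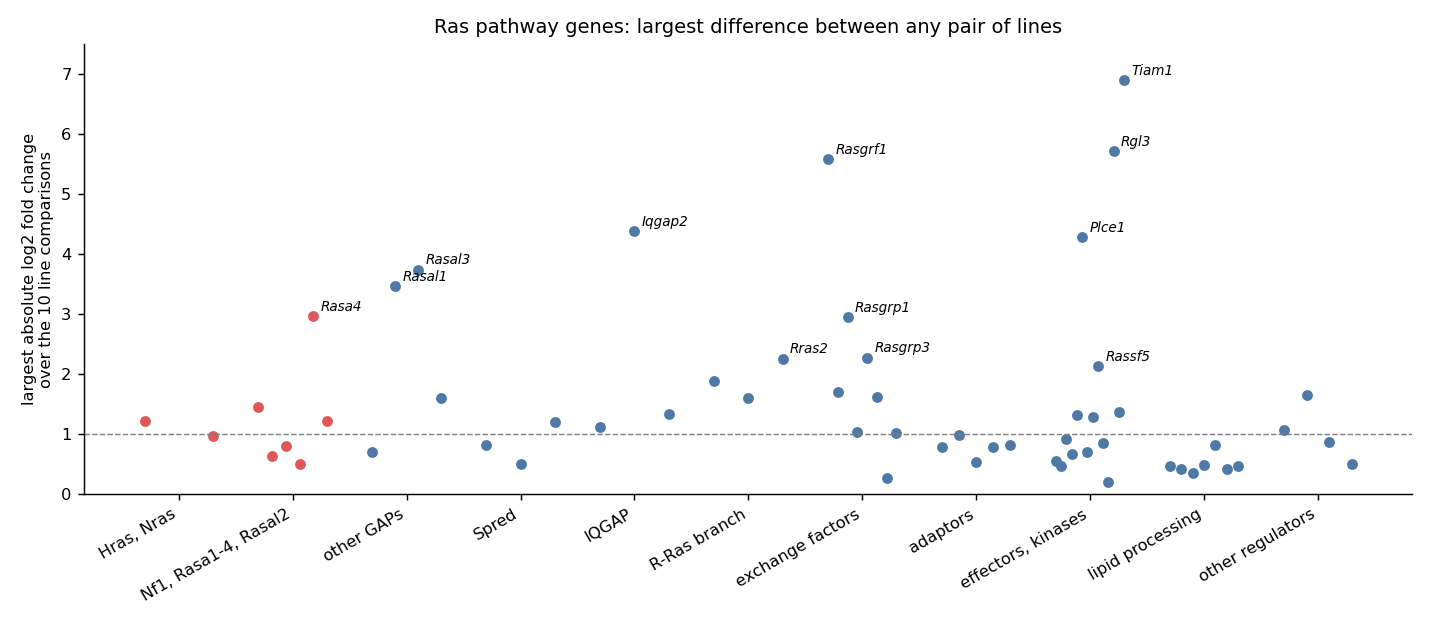
Largest absolute log2 fold change of each gene over the 10 line comparisons (edgeR), by group of the Ras pathway; red points are Hras, Nras and the 6 GAP genes, blue points the 51 other genes, and the dashed line marks 1. Tiam1 (MCA-943 minus MCA-972, -6.90), Rgl3 (MCA-943 minus MCA-970, -5.72) and Rasgrf1 (MCA-969 minus MCA-948, 5.58) lay farthest out, and all adaptors and lipid-processing genes lay below 1. Rasa4, which was selected on its difference between lines, was the highest of the red points.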

How the data were processed

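RNA sequencing of 30 CD45-depleted tumors was used. Per the labels, the authors deposited 1 table of raw read counts per gene for all tumors. The submitters' processing notes name STAR 2.5.3a, Picard, featureCounts 1.5.2 and the mouse build GRCm38, and strand use in counting is not given in the sources used here. Gene symbols and positions came from GENCODE vM21 (48058 of 48440 genes named), counted lengths from the length column of the deposited count table, and promoter sequences from RefSeq on GRCm38.p6. The 8 members and all gene lists were chosen with earlier results of these data known.

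Counts were normalized by TMM, filtered by filterByExpr with line as group (16862 genes) and tested with edgeR 4.0.16 (robust quasi-likelihood, R 4.3.3), with Benjamini-Hochberg adjustment over all genes tested. The methods' DESeq2 (1.42.0) and limma-voom (limma 3.58.1) were alternatives. All 30 tumors and 5 lines entered 1 model. Differences between lines were called at an adjusted p under 0.05 where the log2 fold change was also 1 or more in either direction. The letter model used 26 tumors (16557 genes) and the line by letter model 22 (15853 genes). Levels are CPM over TMM-scaled totals, divided by kilobases of counted exons where genes are compared, and log2 CPM used a prior count of 2. Correlations are descriptions without a p. Named pathway genes were those with the largest change among the called (up to 3 per list), the other RasGAPs (1 listed gene is not reported here), and the 5 genes most and 3 least correlated with Rasa4. The code was tested on simulated data.

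Total counts were 27745104 to 46537062 per tumor. The replicate codes in the titles did not pair tumors across lines: deviations of 29 pairs with the same letter and code correlated at a median of 0.02 (-0.43 to 0.41). No pair of tumors of a line was a duplicate (chi-square per gene of at least 14.6). The labels do not say that tumors of a line came from separate mice, so p-values measure the spread between these samples, which may be partly technical.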

Additional observations from a re-analysis of the deposited data

Results flagged for a closer look

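Of the 40 sets formed by 8 genes and 5 lines, 4 had a tumor that stood apart from the others of its line by Dixon's test, and chance gives about 1 in 20. Hras was at 46.0 CPM in MCA-969 W-2D, above the other 7 tumors of the line (25.2 to 33.4 CPM). Nras was at 98.7 CPM in MCA-969 W-1D, below the others (122 to 147 CPM). Rasa1 was at 192 CPM in MCA-970 W-2D, below the others (225 to 244 CPM). Rasa2 was at 51.4 CPM in MCA-969 W-R, above the others (42.1 to 44.98 CPM). Both run 2 tumors of MCA-969 are among these 4.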

How the results depend on the processing

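Of 70 comparisons of a gene between lines, 4 were called. The count was 7 with the library run in the model, which also took in Nras for MCA-943 minus MCA-948 and minus MCA-970, Hras for MCA-943 minus MCA-970, and Rasa2 for MCA-943 minus MCA-970 and minus MCA-969. The share of all genes called with the run in the model is not given here, so the rise from 4 to 7 cannot be set against it. Comparisons of MCA-943 with MCA-970 and MCA-969 in that model rest on MCA-948 a-2G and a-R for the link between runs. That model moved Nf1 in MCA-969 minus MCA-948 to -0.97 and Rasal2 in MCA-943 minus MCA-969 to 0.81, both short of the fold threshold. The count was 45 without the threshold on the fold change, 5 with DESeq2 or its size factors, 6 with limma-voom, and 4 with each other filter, with an adjusted p under 0.01 and without W-1D and W-2D of MCA-969. With the letter and code of the title as a replicate block it was 6, which added Nf1 in MCA-969 minus MCA-970 and minus MCA-972. Leaving out 1 tumor at a time gave 3 to 6, the lowest without MCA-969 W-2D and the highest without MCA-969 W-1D, which added the same comparisons of Nf1. Hras in MCA-943 minus MCA-972 and Rasal2 in MCA-943 minus MCA-948 were called under every alternative run. Rasal2 in MCA-943 minus MCA-969 was 0.997 without the 3 tumors with the lowest long genes (W-2D of MCA-969, a-2G and a-R of MCA-948), an alternative chosen after seeing the data, and 0.97 without MCA-943 a-1G. Nras in MCA-943 minus MCA-948 was -1.11 both without those 3 tumors and with the library run. Of the other pathway genes 99 comparisons were called, 329 without the fold threshold, 92 to 101 without 1 tumor at a time, 90 with the replicate block and 80 to 98 under the other alternatives. No member passed the test between title letters under any alternative. The line by letter test called 1 member (Rasa1) with DESeq2 and 0 with edgeR. The Rasa4 difference between MCA-969 and MCA-972 was 0.87, and 0.85 to 1.08 under the alternatives (0.79 to 1.05 without 1 tumor at a time, the highest without W-2D). The correlation of the member most like Rasa4 was 0.50 (Rasal2), 0.44 as Spearman's rho, 0.59 within lines (Nf1), 0.64 over line means and 0.43 without the 3 tumors. Rasa4 correlated with Nf1 at -0.56 over tumors and 0.59 within lines, with Hras at 0.11 and -0.57, and with Nras at -0.71 and 0.10. The values within lines include MCA-969 W-2D, which had the lowest Rasa4 and Nf1 and the highest Hras deviations. They were not computed without it. None of the 4 calls changed direction, nor did Nras in MCA-943 minus MCA-948 or the Rasa4 difference. Except where stated, the cause was not tested. Precision is limited by 4 to 8 tumors of 1 cell line each and, for Rasa4 in MCA-948, by counts as low as 75 in a tumor.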
